A study of Rattus norvegicus with 12 samples.

Results

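The genes described here carry fatty acids into cells, coat lipid droplets or release fatty acids from stored fat. The list held 10 genes, chosen by name with earlier results of these data known. They were the surface receptor Cd36, the droplet coat genes Plin2, Plin4 and Plin5, the lipase genes Lpl and Pnpla2, the lipase inhibitor Angptl4, and the fatty acid binding protein genes Fabp1, Fabp3 and Fabp4. Of these, 8 were among the 13151 genes of the table of normalized values, and Plin4 and Fabp1 were not analysed here. A total of 6 of the 8 passed the filter on low values and were tested, which were Cd36, Plin2, Lpl, Angptl4, Fabp3 and Pnpla2.

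Whole renal cortex came from male rats killed at 32 weeks of age, namely 4 Zucker lean (ZL) controls, 4 Zucker fatty (ZF) rats and 4 ZF-SGLT2i rats. ZF rats lack a functional leptin receptor in all tissues, overeat and become obese, and ZF-SGLT2i rats carried the same defect. ZF-SGLT2i rats also received canagliflozin, an inhibitor of the glucose cotransporter SGLT2 of the proximal tubule, in their food. The dose was 10 mg/kg/day, treatment began at an age of 24 weeks and lasted 8 weeks, and food per body weight was matched to that of untreated ZF rats. The methods describe ZL rats only in a time-course cohort, whose rats underwent kidney biopsies, and ZF-SGLT2i rats only in a treatment cohort bought separately and divided at random. The sequenced ZF rats are called nontreated in a legend, the name of an arm of the treatment cohort, but their cohort is not stated. Cohort and group cannot be told apart between ZF-SGLT2i and ZL rats. The same holds between ZF and ZL rats if the ZF rats came from the treatment cohort. If they came from the time-course cohort, it holds between ZF-SGLT2i and ZF rats instead. The reads on genes numbered 8886901 to 12210257 per ZL rat, 8824980 to 11191377 per ZF rat and 8914666 to 10293049 per ZF-SGLT2i rat. Values are CPM, the read counts of a gene relative to the library size, scaled by the TMM factors of edgeR, and fold changes are on the scale of log2(CPM + 1), which understates the change of a gene near 1 CPM.

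Renal tubule cells, the proximal tubule above all, burn fatty acids for energy and take them up from the blood and from filtered albumin. In blood vessels, lipoprotein lipase (Lpl) frees fatty acids from lipoprotein triacylglycerol, and Angptl4 inhibits that enzyme. Inside cells, binding proteins carry fatty acids, surplus is stored as triacylglycerol in droplets coated by perilipins, and adipose triglyceride lipase (the product of Pnpla2) starts the release of fatty acids from these droplets. Many of these genes are known targets of the PPAR nuclear receptors, which sense fatty acids.

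The plainest difference among the 8 genes was that of Pnpla2, which was higher in ZF-SGLT2i rats than in both ZF and ZL rats. Lpl was lower in ZF than in ZL rats, and Angptl4 was higher in ZF-SGLT2i than in ZL rats. The other members tested, Cd36, Fabp3 and Plin2, passed the test in none of the 3 comparisons. A gene was called at a Benjamini-Hochberg adjusted p under 0.05 in limma, fitted to all 11633 genes tested. For ZF against ZL, 1 of the 6 genes was called (Lpl, lower), where 18.8% of all tested genes were called. Between ZF-SGLT2i and ZF rats, 1 of 6 was called (Pnpla2, higher), against 3.15% of all tested genes. Between ZF-SGLT2i and ZL rats, 3 of 6 were called (Pnpla2 and Angptl4 higher, Lpl lower), against 27.4% of all tested genes. The median log2 fold change of the 6 genes was −0.099, 0.011 and −0.104 in these comparisons, and that of all tested genes was −0.0077, 0.0064 and −7e-05. The comparisons share their rats, as the same ZF values enter the first and the second, so they are not independent of each other. In whole cortex, fewer cells of a type and less RNA per cell cannot be told apart. In the main fit, each limma p-value rests on the spread between rats within groups, pooled over all 3 groups and drawn towards that of other genes. It thus also depends on the rats of the group not compared. Quantile normalization moved the split of all called genes between ZF and ZL rats from 953 higher and 1232 lower to 1103 higher and 942 lower.

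**Figure D1:**
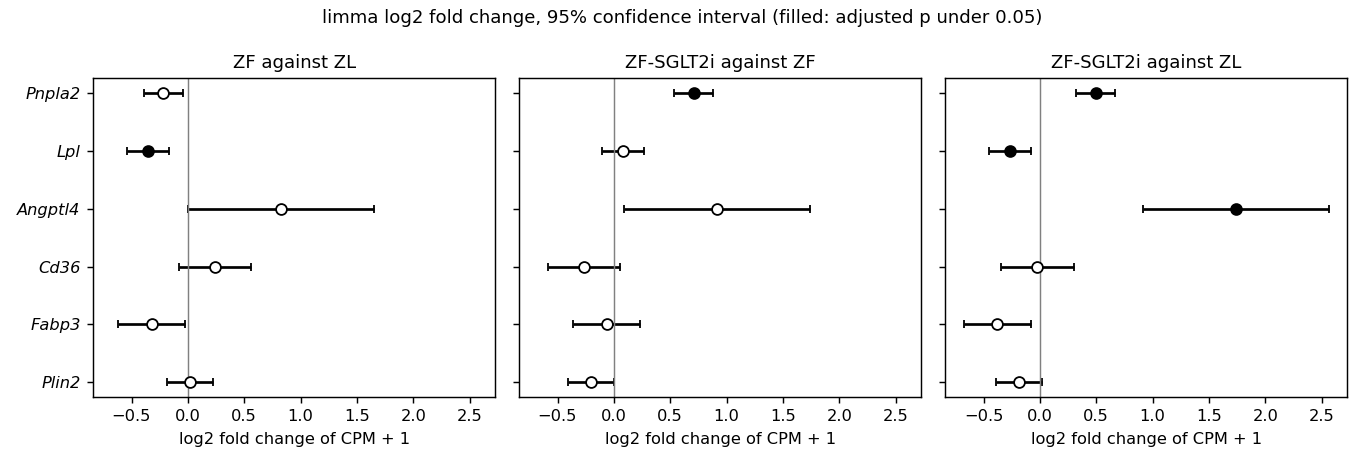
Each panel plots the limma log2 fold change of CPM + 1 (points) with its 95% confidence interval (bars) for the 6 tested genes in a comparison, and filled points have an adjusted p under 0.05. The interval of Pnpla2 lies above 0 in both panels with ZF-SGLT2i rats, and the intervals of Angptl4 are the widest of the 6.

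Pnpla2 encodes adipose triglyceride lipase, the enzyme that takes the first fatty acid off stored triacylglycerol. Its level was 129, 141, 152 and 129 CPM in ZL rats 1 to 4. It was 112, 121, 119 and 122 CPM in ZF rats 2 to 5. In ZF-SGLT2i rats 2, 3, 4 and 6 it was 199.9, 204, 163 and 214 CPM. All ZF-SGLT2i rats lay above all other rats, with rat 4 the lowest of the treated rats, and all ZF rats lay below all ZL rats. The means were 138 ± 11.2 in ZL, 119 ± 4.35 in ZF and 195 ± 22.1 CPM in ZF-SGLT2i rats (SD, n = 4 each), each library holding at least 1118 reads of the gene. Against ZF rats, Pnpla2 was 1.65-fold higher in ZF-SGLT2i rats, with a log2 fold change of 0.71 (SE 0.081, 95% interval 0.54 to 0.88, limma adjusted p = 0.00053). Against ZL rats it was 1.42-fold higher, with a log2 fold change of 0.49 (SE 0.081, limma adjusted p = 0.00076). The groups also stood apart in a two-sided exact permutation test in both comparisons (p = 0.0286, the smallest that 70 assignments of 4 rats against 4 allow). Between ZF and ZL rats the log2 fold change was −0.22 (SE 0.081), and the adjusted p of 0.079 did not pass, although the groups did not overlap (exact permutation p = 0.0286). Leaving out ZF-SGLT2i rat 4 gave an adjusted p of 0.030 for that difference, the only 1 of 22 alternatives that passed. Quantile normalization gave a smaller log2 fold change of −0.13 (limma adjusted p = 0.33), and the fit without ZL rat 3 gave −0.17 (limma adjusted p = 0.19). Groups without overlap were found for 2 of the 6 genes between ZF and ZL rats (19.0% of all tested genes), for 1 of 6 between ZF-SGLT2i and ZF rats (11.2%) and for 1 of 6 between ZF-SGLT2i and ZL rats (28.0%).

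**Figure D2:**
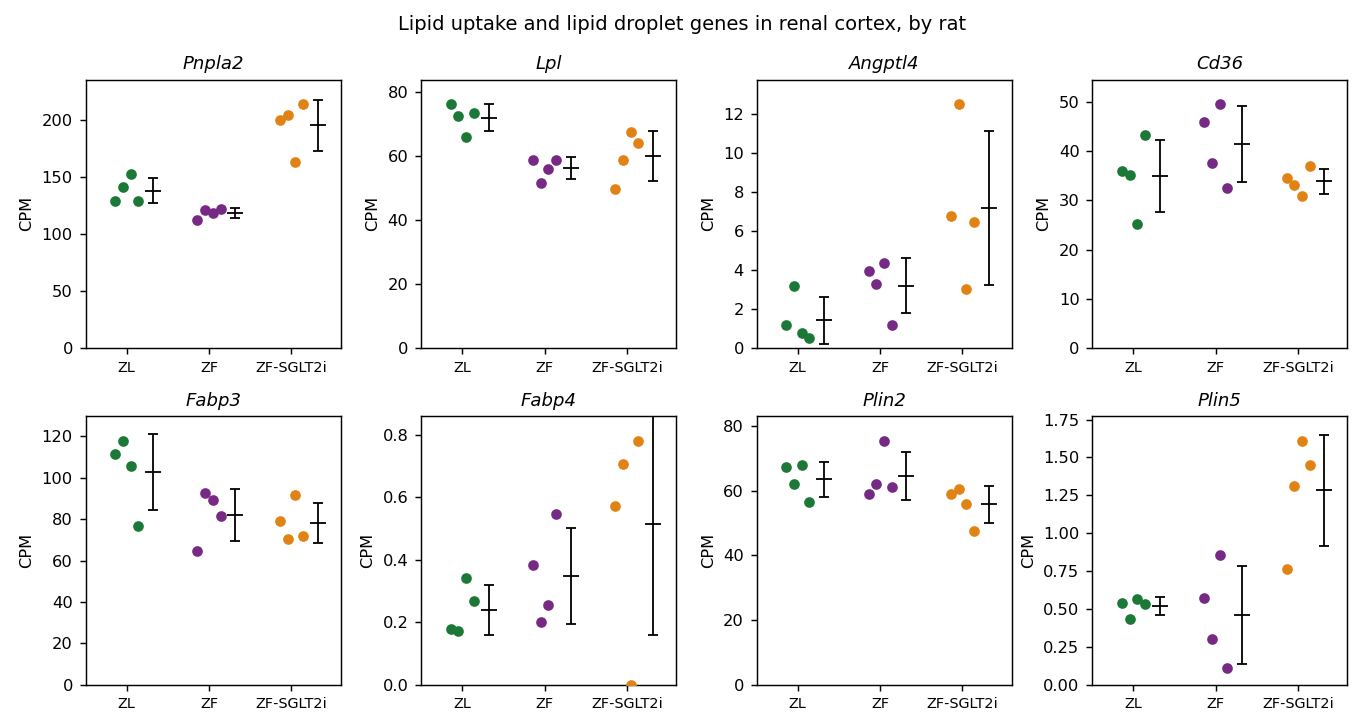
Each panel shows CPM (linear axis from 0) of a gene in the 12 rats, with coloured points for single rats in order of rat number and black bars for the mean and SD of 4 rats. The ZF-SGLT2i points of Pnpla2, at 163 to 214 CPM, lie above the other rats, while the 3 groups of Cd36 and Plin2 overlap.

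Lpl encodes lipoprotein lipase, which acts on the vessel wall. Its level was 76.3, 72.5, 66.1 and 73.4 CPM in ZL rats 1 to 4. It was 58.9, 51.5, 56.1 and 58.7 CPM in ZF rats 2 to 5. In ZF-SGLT2i rats 2, 3, 4 and 6 it was 49.6, 58.8, 67.4 and 64.1 CPM. Every ZF rat lay below every ZL rat, whereas ZF-SGLT2i rat 2 lay below all ZF rats and ZF-SGLT2i rat 4 lay above the lowest ZL rat. The means were 72.1 ± 4.29 in ZL, 56.3 ± 3.43 in ZF and 59.97 ± 7.77 CPM in ZF-SGLT2i rats (SD, n = 4 each). Lpl was 1.28-fold higher in ZL than in ZF rats, with a log2 fold change of −0.35 for ZF against ZL (SE 0.087, limma adjusted p = 0.0139, exact permutation p = 0.0286). ZF-SGLT2i rats differed from ZF rats by 0.08 on the log2 scale (95% interval −0.10 to 0.27, limma adjusted p = 0.68). They differed from ZL rats by −0.27 (SE 0.087, limma adjusted p = 0.034), with groups that overlapped. This last call was lost without ZL rat 1, 2 or 4 (adjusted p = 0.095, 0.059 and 0.067) and without ZF-SGLT2i rat 2 or 3 (adjusted p = 0.092 and 0.077).

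Angptl4 encodes a secreted inhibitor of lipoprotein lipase that rises with fasting and with fatty acid load in many tissues. Its level was low, 1.17, 3.21, 0.794 and 0.536 CPM in ZL rats 1 to 4. It was 3.93, 3.31, 4.36 and 1.20 CPM in ZF rats 2 to 5, and 6.76, 12.5, 3.02 and 6.47 CPM in ZF-SGLT2i rats 2, 3, 4 and 6. ZL rat 2 and ZF-SGLT2i rat 3 were the highest of their groups, ZF rat 5 was the lowest of its group, and the ranges of neighbouring groups overlapped. These values rest on 6 to 37 reads per ZL rat, 11 to 51 per ZF rat and 30 to 124 per ZF-SGLT2i rat, and the SD was 85.2%, 43.7% and 54.8% of the group means. The mean in ZF-SGLT2i rats (7.19 ± 3.94 CPM) was 5.04-fold that in ZL rats (1.43 ± 1.22 CPM, SD, n = 4 each), with a log2 fold change of 1.74 (SE 0.38, 95% interval 0.92 to 2.57, limma adjusted p = 0.0048). Without ZL rat 2 the ZL mean was 0.832 CPM, the ratio was 8.64-fold and the log2 fold change was 2.05 (limma adjusted p = 0.0016). The ranges met only at ZL rat 2 and ZF-SGLT2i rat 4 (exact permutation p = 0.057). ZF rats lay between, at 3.20 ± 1.40 CPM, with a log2 fold change of 0.83 against ZL rats (adjusted p = 0.149) and of 0.91 for ZF-SGLT2i against ZF rats (adjusted p = 0.235), neither of which passed in limma. Without ZL rat 2 the difference between ZF and ZL rats was 1.13 on the log2 scale and passed (limma adjusted p = 0.046).

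The upstream sequences of Pnpla2 and Angptl4 are shown because, among the 6 tested members, these were called higher for ZF-SGLT2i against ZL. The call of Angptl4 was not made against ZF rats (limma adjusted p = 0.235), and Plin5, which passed in both comparisons only in a fit without the filter, is not shown. Each is the 250 bases before a RefSeq transcript start on the assembly GRCr8, written 5′ to 3′ on the strand of the gene, with motif matches in capitals. The region of Pnpla2 is chr1:205982029-205982278 on the plus strand, and that of Angptl4 is chr7:15258682-15258931 on the minus strand.
Pnpla2: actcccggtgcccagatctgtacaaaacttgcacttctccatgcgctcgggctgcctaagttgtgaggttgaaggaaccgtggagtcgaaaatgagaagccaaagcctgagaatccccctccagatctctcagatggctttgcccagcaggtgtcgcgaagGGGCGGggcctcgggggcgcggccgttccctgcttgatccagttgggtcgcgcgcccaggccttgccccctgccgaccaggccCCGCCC
Angptl4: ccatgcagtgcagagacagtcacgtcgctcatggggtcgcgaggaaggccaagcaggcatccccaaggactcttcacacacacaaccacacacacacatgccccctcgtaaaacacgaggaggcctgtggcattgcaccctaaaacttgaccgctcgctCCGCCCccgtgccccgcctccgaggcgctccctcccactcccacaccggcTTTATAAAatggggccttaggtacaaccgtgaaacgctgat
The capitals mark GGGCGG (the GC box), found in Pnpla2 on both strands and in Angptl4 on the minus strand (written CCGCCC), and TATAAA (the TATA box), found in Angptl4, where the matches on the 2 strands overlap between 34 and 41 bases before the start. On both strands, 30.5% of all 33469 RefSeq windows of the same length hold GGGCGG and 12.9% hold TATAAA. The PPAR half-site AGGTCA, held by 14.1% of windows, the E-box CACGTG (5.59%), the forkhead motif TGTTTAC (3.21%) and the direct repeat of the half-site with 1 base between (DR1, 0.0508%) were not matched in either. Among the 4 other members matched to such a window, AGGTCA was matched in Plin5, CACGTG at 1 of the 2 starts of Plin2, GGGCGG in Plin5 and at the same start of Plin2, and TATAAA in Cd36. These are matches of letters in a short window and were not tested for binding.

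Cd36 encodes a receptor that takes up long-chain fatty acids and oxidized lipoproteins. Its level was 36.1, 35.2, 25.3 and 43.2 CPM in ZL rats 1 to 4, 45.9, 37.6, 49.6 and 32.6 CPM in ZF rats 2 to 5, and 34.6, 33.1, 30.9 and 37.0 CPM in ZF-SGLT2i rats 2, 3, 4 and 6. All 3 groups overlapped, with ZL rat 3 the lowest and ZF rat 4 the highest rat. The log2 fold change was 0.24 for ZF against ZL (95% interval −0.08 to 0.56, limma adjusted p = 0.28) and −0.27 for ZF-SGLT2i against ZF (95% interval −0.59 to 0.05, adjusted p = 0.39). Between ZF-SGLT2i and ZL rats it was −0.02, with a 95% interval from −0.34 to 0.30 (limma adjusted p = 0.93). No interval of Cd36 left out 0.

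Fabp3 encodes the heart-type fatty acid binding protein, which carries fatty acids through the cytosol. Its level was 112, 118, 106 and 76.6 CPM in ZL rats 1 to 4. It was 64.5, 92.6, 89.5 and 81.4 CPM in ZF rats 2 to 5, and 78.9, 70.4, 91.6 and 72.1 CPM in ZF-SGLT2i rats 2, 3, 4 and 6. ZL rats 1 to 3 lay above all ZF and ZF-SGLT2i rats, and ZL rat 4 lay within their range. The log2 fold change was −0.32 for ZF against ZL (SE 0.14, limma adjusted p = 0.125) and −0.38 for ZF-SGLT2i against ZL (SE 0.14, limma adjusted p = 0.056), so neither passed. Without ZL rat 4 both passed, at −0.45 (limma adjusted p = 0.020) and −0.51 (limma adjusted p = 0.0067), and the second also passed without ZF rat 2 (adjusted p = 0.037) or ZF-SGLT2i rat 4 (adjusted p = 0.035). The first was smaller without ZF rat 2, at −0.21 (limma adjusted p = 0.32), and without ZL rat 2, at −0.25 (limma adjusted p = 0.26). ZF-SGLT2i and ZF rats differed by −0.06 (95% interval −0.36 to 0.24, limma adjusted p = 0.87). Fabp4, the adipocyte and endothelial form, had 2 to 3 reads per ZL rat, 2 to 5 per ZF rat and 0 to 7 per ZF-SGLT2i rat and was not tested. In ZF-SGLT2i rat 4, which had no read of Fabp4, a count of 0 allows a level of up to 0.302 CPM (3 reads, counting error only).

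The perilipin Plin2 coats droplets in most tissues, and its RNA and protein are often used as a measure of stored lipid. Its level was 67.4, 62.1, 67.9 and 56.5 CPM in ZL rats 1 to 4, 59.1, 62.1, 75.4 and 61.0 CPM in ZF rats 2 to 5, and 59.0, 60.6, 55.8 and 47.5 CPM in ZF-SGLT2i rats 2, 3, 4 and 6. The groups overlapped, with ZF-SGLT2i rat 6 the lowest and ZF rat 4 the highest. ZF and ZL rats differed in Plin2 by 0.02 on the log2 scale (95% interval −0.18 to 0.22, limma adjusted p = 0.92). The log2 fold change was −0.20 for ZF-SGLT2i against ZF (95% interval −0.41 to −0.0028, limma adjusted p = 0.28) and −0.19 for ZF-SGLT2i against ZL rats (limma adjusted p = 0.158), and neither passed after adjustment.

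Plin5, the perilipin of oxidative tissues that brings droplets to mitochondria, was near the limit of detection and failed the filter. It had 6, 5, 5 and 6 reads in ZL rats 1 to 4, 6, 3, 10 and 1 reads in ZF rats 2 to 5, and 8, 13, 16 and 13 reads in ZF-SGLT2i rats 2, 3, 4 and 6. These correspond to 0.519 ± 0.059, 0.460 ± 0.325 and 1.28 ± 0.368 CPM (SD, n = 4 each). The ZF-SGLT2i rats lay above all ZL rats (exact permutation p = 0.0286) and overlapped with the ZF rats at ZF rat 4 (exact permutation p = 0.057). In a fit without the filter, the log2 fold change of Plin5 was 0.66 against ZF rats (limma adjusted p = 0.044, where 2.80% of the 13151 genes passed) and 0.57 against ZL rats (limma adjusted p = 0.0195, where 24.3% passed). With under 20 reads per rat, the counting error of each value is large.

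The pathway around these genes was described with 5 lists with 92 further genes (78 of them in the table, 74 tested). As background, 8.19% of all tested genes were called higher and 10.6% lower for ZF against ZL, 1.39% and 1.75% for ZF-SGLT2i against ZF, and 12.4% and 15.0% for ZF-SGLT2i against ZL. The lists were chosen with results of these rats known, so their counts are a description.

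Of 19 tested genes for uptake, binding and activation of fatty acids, 1 rose and 2 fell for ZF against ZL, 3 rose and none fell for ZF-SGLT2i against ZF, and 4 rose and 3 fell for ZF-SGLT2i against ZL. The list's median log2 fold change was −0.046, 0.046 and 0.026. The 3 genes that rose for ZF-SGLT2i against ZF are known for the entry of fatty acids into metabolism. Slc27a1, a fatty acid transport protein, was 37.3 to 39.7 CPM in ZF and 49.3 to 57.9 CPM in ZF-SGLT2i rats, with a log2 fold change of 0.46 (SE 0.060, limma adjusted p = 0.0011). Acsl1, which activates fatty acids to acyl-CoA, was 211 to 268 CPM in ZF and 317 to 326 CPM in ZF-SGLT2i rats (log2 fold change 0.41, limma adjusted p = 0.031). Slc27a2, the transport protein and very long-chain acyl-CoA synthetase of proximal tubule and liver, was 531 to 689 CPM in ZL, 421 to 493 CPM in ZF and 543 to 589.9 CPM in ZF-SGLT2i rats. It fell in ZF against ZL rats by 0.44 on the log2 scale (limma adjusted p = 0.0026) and rose in ZF-SGLT2i against ZF rats by 0.33 (limma adjusted p = 0.035). The calls of Acsl1 and Slc27a2 between ZF-SGLT2i and ZF rats were lost without any ZF-SGLT2i rat and without ZF rats 2 or 3, and that of Slc27a2 also without ZF rat 5 or ZL rat 1 (adjusted p of 0.072 to 0.096 and of 0.054 to 0.106). The count of this list that rose was thus 1 in the fits without any ZF-SGLT2i rat or without ZF rat 2 or 3, and 1 gene fell without ZF rat 5 or ZL rat 3. For ZF against ZL the count that fell was 1 without ZF rat 2 or 3 or ZL rat 1 or 4. Lipg, the endothelial lipase, was lower in ZF than in ZL rats (log2 fold change −0.69, limma adjusted p = 0.026, lost without ZL rat 1 or 4 or ZF rat 2, 3 or 4, at 0.055 to 0.072). Scarb1, the receptor for high density lipoprotein, rose for ZF against ZL by 0.43 on the log2 scale (limma adjusted p = 0.0149).

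Of 12 tested genes of droplet coat and assembly, 4 fell and none rose in ZF against ZL rats, none was called for ZF-SGLT2i against ZF by limma, edgeR or DESeq2 (0 of 12 at an unadjusted limma p under 0.05), and 1 rose and 5 fell for ZF-SGLT2i against ZL. Cidec, which fuses small droplets into large ones and is best known from adipocytes, was 25.4, 7.02, 10.2 and 45.8 CPM in ZL rats 1 to 4. It was 9.78, 1.80, 4.44 and 0.437 CPM in ZF rats 2 to 5, and 3.24, 4.24, 2.72 and 1.78 CPM in ZF-SGLT2i rats 2, 3, 4 and 6. ZL rats 1 and 4 were the highest and ZF rat 2 lay within the range of the ZL rats. Cidec fell by 2.22 on the log2 scale in ZF against ZL rats (SE 0.58, limma adjusted p = 0.0187), a call lost without ZL rat 1 or ZF rat 3 or 5 (adjusted p = 0.051 to 0.058). It differed from ZF rats by −0.01 in ZF-SGLT2i rats (limma adjusted p = 0.99). Its relative Cideb fell by 0.40 in ZF against ZL rats (limma adjusted p = 0.031), lost without any of ZL rats 1, 3 and 4 or ZF rats 2 and 5, at 0.060 to 0.089. Mettl7b, a protein of the droplet surface, fell by 0.75 (SE 0.13, limma adjusted p = 0.0026). Fitm1, a protein of droplet formation, was higher in ZF-SGLT2i than in ZL rats (log2 fold change 0.71, limma adjusted p = 0.018, lost without ZL rat 4 or ZF-SGLT2i rat 4, at 0.051 and 0.052). The list's counts moved when a rat was left out. For ZF against ZL, 2 genes fell without ZF rat 5 or ZL rat 1, and 1 rose without ZL rat 2. For ZF-SGLT2i against ZL, the count that fell was 3 without ZF rat 3, ZF-SGLT2i rat 3 or 4, or ZL rat 3, and 2 without ZF-SGLT2i rat 6 or ZL rat 1 or 4. Cidec and Mettl7b were called lower in each of these fits for ZF-SGLT2i against ZL.

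Of 9 tested genes of lipolysis and its regulators other than Pnpla2, 3 fell and none rose in ZF against ZL rats, and none was called for ZF-SGLT2i against ZF by limma, edgeR or DESeq2 (1 of 9 at an unadjusted limma p under 0.05). The closest partners of the Pnpla2 product were among the genes without a call. Abhd5, its activator, differed by −0.01 on the log2 scale between ZF-SGLT2i and ZF rats (SE 0.11, limma adjusted p = 0.97), and G0s2, its inhibitor, by −0.25 (SE 0.11, adjusted p = 0.26). Lipe, the hormone-sensitive lipase of the next step, differed by 0.19 (SE 0.11, adjusted p = 0.40). These 3 genes were named after their values were seen. Ces1d, a carboxylesterase that can hydrolyse triacylglycerol, was 39.5 to 45.9 CPM in ZL, 27.8 to 29.9 CPM in ZF and 28.2 to 34.1 CPM in ZF-SGLT2i rats and fell by 0.62 in ZF against ZL rats (SE 0.072, limma adjusted p = 0.00014). It belongs to a family of close copies, whose reads could not be separated here. Mgll, which splits the last ester bond, fell by 0.39 (limma adjusted p = 0.028), and Lipa, the lysosomal acid lipase, fell by 0.27 (limma adjusted p = 0.021). The call of Mgll was lost without ZL rat 1 or 3 or ZF rat 2, 3 or 5 (0.063 to 0.091) and that of Lipa without ZL rat 3 or ZF rat 3 or 5 (0.052 to 0.061). Without ZL rat 3 or ZF rat 3 or 5, Ces1d alone fell for ZF against ZL. Genes of the list also rose in that comparison when a rat was left out, with 2 called without ZF rat 4 (Aqp3 and G0s2), 1 without ZL rat 2 or ZF-SGLT2i rat 6 (Aqp3) and 1 without ZL rat 1 (G0s2). Of the glycerol channels, Aqp3 was higher in ZF-SGLT2i than in ZL rats (log2 fold change 0.71, limma adjusted p = 0.0028). Aqp3 is also 1 of the 7 collecting duct markers, of which 4 rose and none fell in that comparison, and their part in its difference was not tested. In the same comparison Aqp7 was lower (−0.74, limma adjusted p = 0.022, lost without ZL rat 1 or 4 or ZF-SGLT2i rat 6, at 0.060 to 0.076). Together, 1 gene of this list rose and 2 fell in ZF-SGLT2i against ZL rats (1 fell without ZL rat 4 or ZF-SGLT2i rat 6).

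Of 16 tested genes of triacylglycerol and cholesterol ester synthesis, 1 rose and 4 fell in ZF against ZL rats, none was called for ZF-SGLT2i against ZF by limma or edgeR and 1 by DESeq2 (7 of 16 at an unadjusted limma p under 0.05), and 5 rose and 3 fell in ZF-SGLT2i against ZL rats. Gpam, which adds the first fatty acid to glycerol phosphate in mitochondria, was 41.4 to 55.3 CPM in ZL rats, 25.1 to 29.1 CPM in ZF rats and 24.9 to 27.0 CPM in ZF-SGLT2i rats. It fell by 0.81 in ZF against ZL rats (SE 0.090, limma adjusted p = 0.00010). Gk, the glycerol kinase, fell by 0.58 (limma adjusted p = 0.0053) in ZF against ZL rats and by 0.83 in ZF-SGLT2i against ZL rats (limma adjusted p = 0.00029). Lpin2, a phosphatidate phosphatase, was 116 to 159 CPM in ZL, 207 to 274 CPM in ZF and 300.0 to 327 CPM in ZF-SGLT2i rats. It rose by 0.75 in ZF against ZL rats (SE 0.10, limma adjusted p = 0.00041), and its further difference of 0.37 between ZF-SGLT2i and ZF rats did not pass (limma adjusted p = 0.062). When a rat was left out, 2 genes of the list rose for ZF against ZL without ZF rat 4, 1 rose for ZF-SGLT2i against ZF without ZF rat 5 or ZL rat 4, and 3 rose for ZF-SGLT2i against ZL without ZL rat 3.

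**Figure D3:**
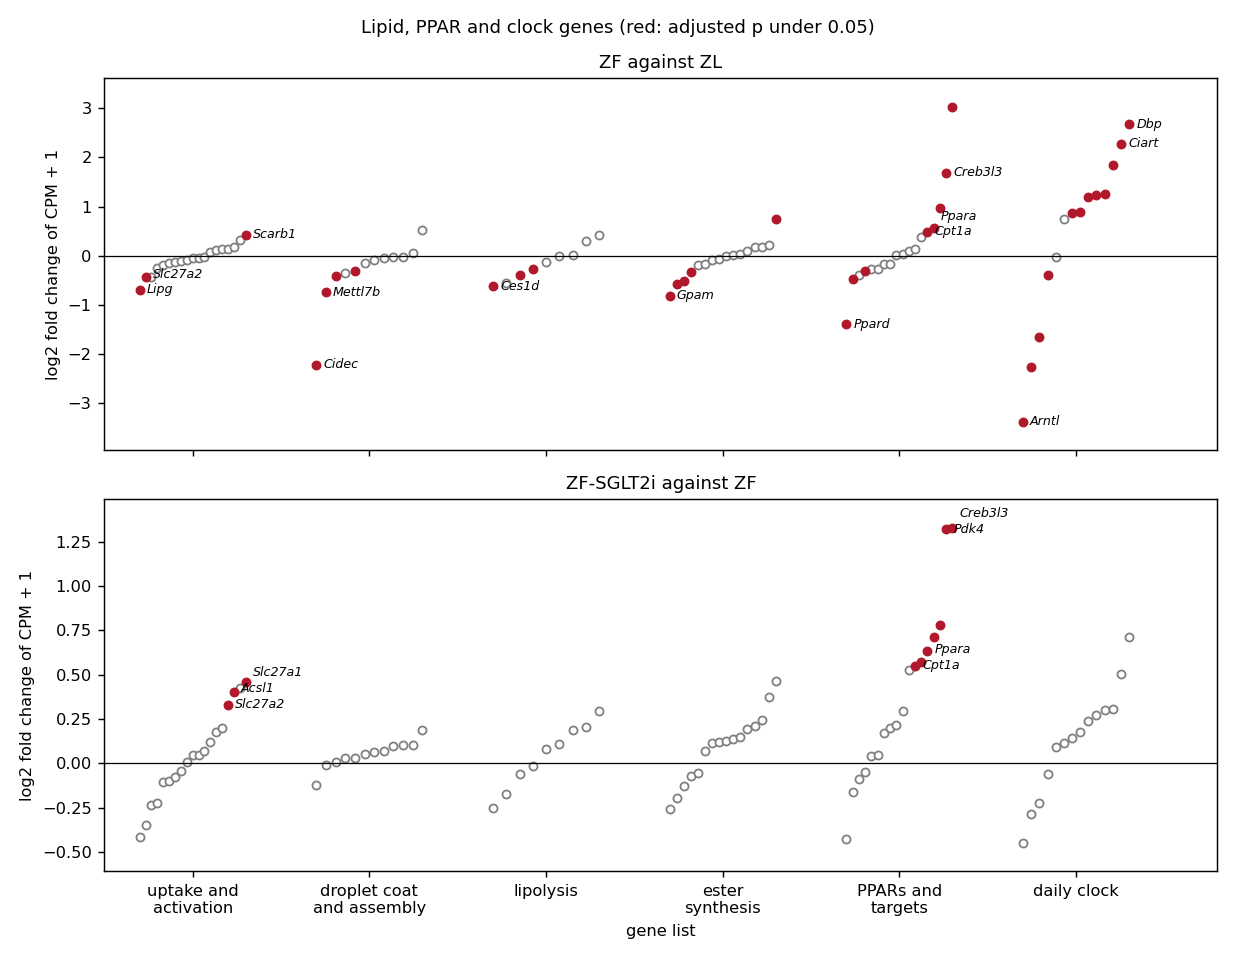
The panels plot the limma log2 fold change of CPM + 1 for each tested gene (points, sorted within a list) of the lipid, PPAR and clock lists, in ZF against ZL rats and in ZF-SGLT2i against ZF rats, with red points at an adjusted p under 0.05. In the second comparison the red points are 3 uptake and activation genes and 7 PPAR list genes, all above 0, and the clock list has none.

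Of 18 tested PPAR genes and well known targets, 5 rose and 3 fell in ZF against ZL rats, 7 rose and none fell in ZF-SGLT2i against ZF rats, and 8 rose and 2 fell in ZF-SGLT2i against ZL rats. The list's median log2 fold change was 0.022, 0.257 and 0.159. Its genes cover fatty acid oxidation and fuel choice as well as the receptors, and they moved in both directions in ZF against ZL rats, with Cpt1a among those that rose and Ehhadh, of peroxisomal oxidation, among those that fell. Ppara, the receptor of oxidative tissues, was 36.7 to 50.1 CPM in ZL, 54.6 to 84.7 CPM in ZF and 90.3 to 118 CPM in ZF-SGLT2i rats. It rose by 0.57 in ZF against ZL rats (limma adjusted p = 0.0086) and by 0.64 in ZF-SGLT2i against ZF rats (SE 0.13, limma adjusted p = 0.016), the second lost without ZF rat 4 or ZF-SGLT2i rat 6 (adjusted p of 0.0502 to 0.0566). Ppard, the receptor of broad expression, was 83.9 to 109 CPM in ZL rats, 34.4 to 35.6 CPM in ZF rats and 34.2 to 37.3 CPM in ZF-SGLT2i rats. It fell by 1.39 in ZF against ZL rats (SE 0.074, limma adjusted p = 2.15e-07) and differed by 0.05 between ZF-SGLT2i and ZF rats (limma adjusted p = 0.80).

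Of the targets, Cpt1a, the gate for entry of fatty acids into mitochondria, was 219 to 256 CPM in ZL, 307 to 353 CPM in ZF and 463 to 507 CPM in ZF-SGLT2i rats. It rose by 0.49 in ZF against ZL rats (limma adjusted p = 0.00035) and by 0.55 in ZF-SGLT2i against ZF rats (SE 0.064, limma adjusted p = 0.00059). Creb3l3, a partner of Ppara in the fasted liver, was 0.179 to 0.897 CPM in ZL, 2.21 to 5.38 CPM in ZF and 8.35 to 13.3 CPM in ZF-SGLT2i rats, and rose by 1.33 in ZF-SGLT2i against ZF rats (limma adjusted p = 0.0052). Pdk4, which turns cells from glucose to fatty acids, was 6.01 to 9.28 CPM in ZL, 4.81 to 7.26 CPM in ZF and 10.7 to 23.3 CPM in ZF-SGLT2i rats. It rose by 1.32 in ZF-SGLT2i against ZF rats (SE 0.20, limma adjusted p = 0.0032). Cyp4a1, a fatty acid omega-hydroxylase, rose by 0.71 in the same comparison (limma adjusted p = 0.029, lost without ZF rat 2, 3 or 4 or ZF-SGLT2i rat 2, 3 or 6, at 0.052 to 0.093). The mean of Pnpla2, like that of Pdk4, was lowest in ZF and highest in ZF-SGLT2i rats. Between ZF and ZL rats, however, Pnpla2 was not called (limma adjusted p = 0.079) and the ranges of Pdk4 overlapped. The means of Angptl4, Cpt1a, Ppara and Creb3l3 in ZF rats lay between those of the other groups. Ppara, Cpt1a, Ehhadh and Cyp4a1 were named after their values were seen.

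**Figure D4:**
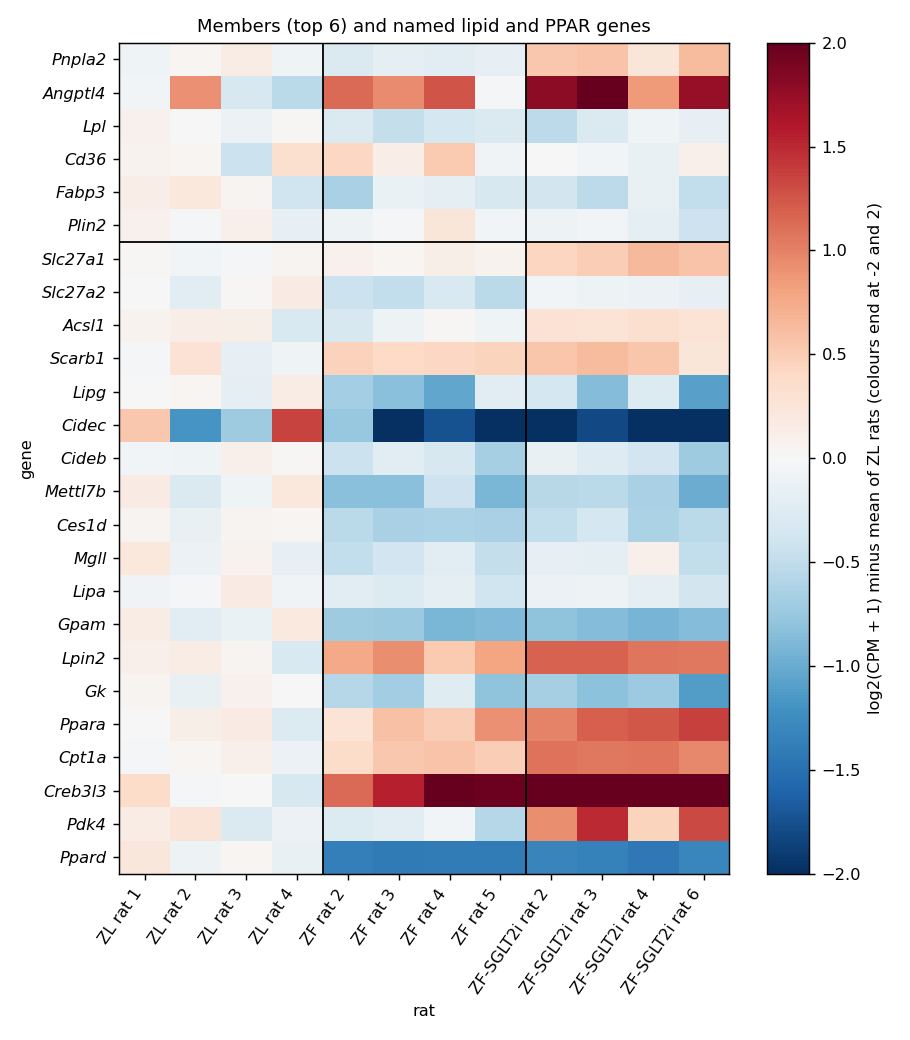
The map shows log2(CPM + 1) minus the mean of the 4 ZL rats (colour, ended at −2 and 2) for the 6 tested members and 19 other lipid and PPAR genes (rows) in the 12 rats (columns). In the row of Pnpla2 all 4 ZF-SGLT2i rats are red and all 4 ZF rats are pale blue, and in the row of Ppard all 8 ZF and ZF-SGLT2i rats are blue.

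Over the 12 rats, the tested genes most like Pnpla2 in log2(CPM + 1) were Sult1a1 (Pearson r = 0.96) and H6pd (r = 0.93). Those most like Angptl4 were Baalc (r = 0.93) and Hyal2 (r = 0.91), and those most like Lpl were Mfap1a (r = 0.91) and Mrpl49 (r = 0.90). These are the highest of 11633 genes and include the differences between groups, and the 12 points of each gene share their libraries.

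Cell type markers gave the makeup of the samples beside these results. The samples held the markers of cortex. The 11 proximal tubule genes, led by Lrp2 in CPM (not corrected for transcript length), summed to 24721 to 27137 CPM in ZL, 17724 to 23232 CPM in ZF and 14993 to 19578 CPM in ZF-SGLT2i rats. Of these genes 1 rose and 3 fell for ZF against ZL, and 2 fell for ZF-SGLT2i against ZF. The 8 injured tubule markers, led by Spp1, summed to 463 to 559 CPM in ZL, 724 to 2096 CPM in ZF and 582 to 1316 CPM in ZF-SGLT2i rats, and 6 of the 8 rose for ZF against ZL while 1 fell for ZF-SGLT2i against ZF. The 11 endothelial markers, led by Kdr, summed to 750.4 to 1052 CPM in ZL, 1036 to 1171 CPM in ZF and 931 to 1195 CPM in ZF-SGLT2i rats. Of these, 3 rose and none fell for ZF against ZL. The 8 podocyte markers, led by Podxl, had medians of 1386, 1941 and 2037 CPM, the 9 tested macrophage markers (11 in the table), led by Csf1r, had medians of 99.6, 142 and 105 CPM, and the 5 smooth muscle markers, led by Myh11, had medians of 111, 142 and 96.5 CPM in ZL, ZF and ZF-SGLT2i rats. The 7 collecting duct markers, led by Aqp2, had medians of 1622, 1799 and 2373 CPM, and the 7 thick limb and distal tubule markers, led by Umod, had medians of 9359, 8793 and 8488 CPM in the same order. For ZF against ZL, 5 podocyte, 2 macrophage, 1 smooth muscle and 1 collecting duct marker rose and 1 thick limb marker fell, and for ZF-SGLT2i against ZF, 1 collecting duct marker rose and 1 smooth muscle marker fell. For ZF-SGLT2i against ZL, the comparison in which Pnpla2, Angptl4 and Aqp3 rose, 4 collecting duct, 5 podocyte, 3 endothelial, 5 injured tubule, 2 macrophage, 1 smooth muscle and 1 thick limb or distal marker rose, while 4 proximal tubule, 1 injured tubule and 2 thick limb or distal markers fell. Their part in the results was not tested.

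Adipocytes, which also express Pnpla2, Lpl, Cd36 and Fabp4, were looked for by their markers. Of 10 adipocyte markers, 6 were in the table and 3 were tested. Plin1, which coats the droplets of adipocytes, had 0 to 4 reads in any rat, and so had Cfd, the gene of adipsin. Adipoq, the gene of adiponectin, was 11.8 to 17.4 CPM in ZL, 8.80 to 12.2 CPM in ZF and 11.9 to 15.7 CPM in ZF-SGLT2i rats, with 102 to 201 reads per rat, and was not called. These 3 markers were named after their values were seen. The list, led by Lipe, summed to 40.0 to 69.3 CPM in ZL, 25.9 to 37.4 CPM in ZF and 33.0 to 35.2 CPM in ZF-SGLT2i rats. ZL rats 4 and 1 were the highest through Cidec, the only marker of the list that was called. Their part in the results was not tested. Markers of skeletal and heart muscle, tissues rich in Fabp3 and Lpl, summed to 0.567 to 0.897 CPM in ZL, 0.765 to 1.303 CPM in ZF and 1.33 to 1.81 CPM in ZF-SGLT2i rats over the 4 of 6 genes in the table, none of which was tested. Red blood cell genes, led by Hba1, summed to 0.780 to 3.06, 2.00 to 12.8 and 0.505 to 21.96 CPM. The share of ribosomal RNA was 7.25% to 12.0% for ZL, 8.82% to 12.0% for ZF and 11.5% to 15.2% for ZF-SGLT2i rats, and its part in the results was not tested.

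Genes of the daily clock, which also sets the rhythm of many lipid genes, differed between ZL rats and both other groups. Of 14 clock genes, 8 rose and 4 fell for ZF against ZL, 9 rose and 4 fell for ZF-SGLT2i against ZL, and none was called for ZF-SGLT2i against ZF by limma, edgeR or DESeq2 (3 of 14 at an unadjusted limma p under 0.05). Arntl, the clock activator, was 30.4 to 51.4 CPM in ZL, 1.42 to 7.01 CPM in ZF and 1.82 to 2.86 CPM in ZF-SGLT2i rats, with a log2 fold change of −3.38 for ZF against ZL (limma adjusted p = 1.12e-05). Dbp, an output gene, was 25.3 to 65.9 CPM in ZL, 182 to 297 CPM in ZF and 257 to 334 CPM in ZF-SGLT2i rats (log2 fold change 2.68 for ZF against ZL). Ciart, a repressor, rose by 2.28 in the same comparison. Lpl, Cidec, Ces1d, Gpam and Ppard were called in the same comparison, ZF against ZL, as were 18.8% of all tested genes. The methods do not give the time of day at which the rats were killed. The part of the clock list in these results was not tested. For ZF-SGLT2i against ZF, 10 of the 14 clock genes had a log2 fold change above 0, and the list's median was 0.159, beside 0.0064 for all tested genes. Its part in the differences of Pnpla2 and the other genes called in that comparison was not tested.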

How the data were processed

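RNA-seq values from the renal cortex of 12 rats were used, 4 each of ZL, ZF and ZF-SGLT2i. The submitters' processing notes name Trimmomatic 0.38, RSEM 1.3.0, Bowtie2, edgeR and the build rn6, without their order or settings. The authors deposited signal values that are CPM with TMM factors, and the values were whole reads times a constant for each rat (100% whole at a relative tolerance of 0.001), so read counts were recovered from them. No column of another sample was present.

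Groups were compared with limma 3.58.1 (R 4.3.3, eBayes with trend) on log2(value + 1), with 3 groups in a fit, over the 11633 of 13151 genes that reached 1 CPM in 4 or more rats. P-values were two-sided and adjusted by the Benjamini-Hochberg method over these genes. Single genes were also compared by exact permutation of 70 assignments. The fit was tested on simulated data. Alternatives used a pseudocount of 0.1, no filter, a mean of at least 10, median ratios, quantile normalization, only the groups compared, a replicate block, array weights, edgeR 4.0.16, DESeq2 1.42.0 and each rat left out.

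Members and gene lists were chosen with earlier results of these data known. Pathway genes were named by the 3 largest called log2 fold changes per list and comparison. Some genes that this rule names are counted in their lists but not reported here. Since no transcript length was used here, levels of different genes were not compared, except to name the gene that led a marker list. That gene had the highest CPM, which also depends on transcript length. Promoters came from RefSeq on GRCr8, with 6 of 8 members matched, and short reads on similar genes could not be separated.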

Additional observations from a re-analysis of the deposited data

How the results depend on the processing

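The calls of Pnpla2 in both comparisons of ZF-SGLT2i rats held in all 22 alternatives (log2 fold change 0.66 to 0.79 against ZF and 0.42 to 0.58 against ZL rats), and that of Angptl4 against ZL rats in all 21 that tested it (1.46 to 2.38). The call of Lpl in ZF against ZL rats held in 21 of 22 (−0.40 to −0.31), and that in ZF-SGLT2i against ZL rats in 14 of 22. With a replicate block, the number of members called in ZF against ZL rats was 0, and Lpl there was −0.34 with a limma adjusted p of 0.080. At unadjusted p under 0.05 the block left 2985 genes and at the adjusted threshold 807. Same-numbered rats were not more often alike than others, as 2 of 9 same-numbered pairs and 13 of 39 other pairs correlated above 0.1. With 9 such pairs, this cannot settle whether the numbers stand for a shared batch or order. The block also changed the call of Lpl in ZF-SGLT2i against ZL rats (limma adjusted p = 0.113). Calls of other genes changed too, among them Pdk4 in ZF-SGLT2i against ZF and Ppara and Scarb1 in ZF against ZL rats. Quantile normalization and a fit of only the 2 groups also ended the call of Lpl in ZF-SGLT2i against ZL rats (0.060 and 0.053), while edgeR and DESeq2 on the recovered reads and array weights called Fabp3 lower in that comparison (0.044, 0.029 and 0.012). The count of members called in ZF against ZL rats was 1 to 2 over the fits without a rat, and 2 without ZF-SGLT2i rat 4 (adding Pnpla2), ZL rat 2 (Angptl4) or ZL rat 4 (Fabp3). Without the filter the count in ZF-SGLT2i against ZF rats was 2, with Plin5 added. Among the log2 fold changes of the 6 tested members, those that reversed had not passed: Cd36 in ZF-SGLT2i against ZL rats (−0.1638 to 0.0865 over the fits without a rat) was 0.0209 without ZF-SGLT2i rat 4, 0.0015 without ZL rat 1 and 0.0865 without ZL rat 4, Plin2 in ZF against ZL rats (−0.0588 to 0.0567 over these fits) was −0.0339 with array weights, −0.0588 without ZF rat 4 and −0.036 without ZL rat 4, and Fabp3 in ZF-SGLT2i against ZF rats (−0.1705 to 0.001) was 0.001 without ZF rat 3. The ratio of means of the untested Plin5 in ZF against ZL rats turned from 0.887 to 1.11 without ZF rat 5. Over all genes, the calls in ZF against ZL rats fell from 2185 to 1389 without ZL rat 1, those in ZF-SGLT2i against ZF rats were 176 when ZF-SGLT2i rat 3 was left out, 570 when ZF rat 5 was, 689 with array weights, 641 with DESeq2 and 223 with the block, against 366, and those in ZF-SGLT2i against ZL rats were 1502 with the block, against 3184. On the recovered reads, edgeR called 2180 genes between ZL and ZF rats, 368 between the ZF groups, and 3216 between the ZL and the treated rats. The cause was not tested. Counts of 6 to 124 reads limit Angptl4, and under 20 reads limit Plin5 and Fabp4.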
